A study of Mus musculus with 8 samples.

Results

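The genes described here are 49 axon guidance ligands and receptors, taken from a list of names and found in full among the 21938 protein-coding genes of the annotation. They comprised 11 Eph receptors, 6 ephrins, 10 semaphorins, 7 plexins, 2 neuropilins, 3 Slits, 3 Robo receptors, 2 netrins and 5 netrin receptors. Their chromatin accessibility was compared between 4 regions of the embryonic mouse forebrain, the cortex (CTX) and the medial, lateral and caudal ganglionic eminences (MGE, LGE and CGE, jointly GE). Each region had 2 wild-type samples of nuclei profiled by snATAC-seq, an assay in which a transposase cuts open chromatin in individual nuclei. All samples were taken at E12.5 except CTX replicate 2, at E14.5, so within CTX the age and the replicate cannot be told apart. The labels did not say whether replicates came from separate litters or animals, and p-values therefore measured only the spread between these samples.

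Guidance cues are secreted or membrane-bound proteins that attract or repel growing axons and migrating neurons. Ephrins are bound by Eph receptors, class 3 semaphorins by neuropilins and plexins, Slits by Robo receptors, and Netrin-1 by Dcc and the Unc5 receptors. In the embryonic telencephalon these systems steer corticofugal and thalamic axons and the tangential migration of interneurons from the eminences into the cortex.

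Each gene was given the counts of the peaks, as called in that sample, which touched the gene body or the 2000 bp upstream of it, added up over all nuclei. Levels are given as CPM, a count divided by the sample's total over the tested genes (adjusted by trimmed-mean factors) and rescaled to a common total. Peaks were called in each sample separately, so a gene's count grows with the length that was called as peak. Covered length in kb and CPM per covered kb are therefore given beside the counts. Sums over nuclei cannot tell fewer nuclei of a type from less accessibility per nucleus. The samples held 3465 to 6845 nuclei and 77387940 to 138873845 counts in 103633 to 182638 peaks, and the share of counts in promoter peaks was 39.0% and 46.7% in CTX and 48.6% to 55.1% in GE. Between 15 and 56 nuclear barcodes were shared by any pair of samples, at most 1.17% of the smaller sample. Of the regional marker genes, all 3 for CTX were called higher in CTX than in GE, and 2 of 3 for MGE were called higher in MGE than in LGE. None of the 3 LGE or 3 CGE markers was called in any comparison of the eminences. Of the LGE markers, Meis2 had its highest mean in LGE (593 CPM). Ebf1 was highest in CGE (316, with 281 in LGE) and Isl1 in MGE (99.1, with 81.7 in LGE). Of the CGE markers, Nr2f1 and Nr2f2 were highest in CGE (554 and 370 CPM) and Prox1 in MGE (168, with 130 in CGE). Markers of some other cell types moved with the cortical comparison and with MGE. The summed level of 9 GABAergic markers was 577 to 742 CPM in CTX, 2502 to 2862 in MGE, 1290 to 2035 in LGE and 1637 to 1915 in CGE, and 6 were called lower in CTX than in GE. That of 8 glutamatergic markers was 823 to 1220 in CTX, 393 to 398 in MGE, 453 to 483 in LGE and 500.02 to 528 in CGE, and 5 were called higher in CTX. Neither sum overlapped between MGE and the other eminences, although no marker of either list was called there. Of 7 endothelial markers (184 to 236 CPM summed in CTX, 141 to 201 in GE, with Tie1 at 0 in some sample) Cdh5 and Flt1 were called higher in CTX. The 6 mural or mesenchymal markers summed to 209 to 216 CPM in CTX and 133 to 200.5 in GE, with Dcn called higher in CTX, and apart from the endothelial list none of these lists held a gene at 0 in any sample. Of 10 progenitor markers, which summed to 1680 to 1929 CPM in CTX and 1727 to 2349 in GE, none was called in any comparison. Nor was any of 6 microglial or 4 erythroid markers, some of which were at 0 in some sample or not tested. The part of cell composition in the results below was not tested.

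Accessibility per covered length differed widely between the genes. Over the 8 samples the mean was highest at Ephb6, a receptor lacking kinase activity, with 26.1 CPM per covered kb (range 21.8 to 32.4), followed by Ephb3 with 19.5 (12.6 to 22.6) and Epha7 with 15.2 (10.2 to 22.4). The range of Ephb3 overlapped those of Ephb6 and Epha7. The lowest means were 3.79 at Epha8 (2.53 to 5.72), 5.14 at Plxnd1 (3.93 to 6.99) and 5.36 at Plxna4 (3.99 to 7.47), and these ranges overlapped too. The genes spanned 6.11 kb (Efnb3) to 1097 kb (Dcc). At Ephb6 100% of the counts lay in peaks at its own promoters, within 1000 bp of a start site, against 4.83% at Slit3 and 5.75% at Slit1, which lay almost entirely in peaks away from their promoters. The peaks of 6 genes were partly shared with a neighbouring gene in some sample, up to 82.8% of the counts of Plxnb2 (with Dennd6b), 73.4% of Efnb3 (with Wrap53), 53.5% of Efna2 (with 1600002K03Rik) and 31.6% of Efna1 (with Slc50a1), so the source of those counts is uncertain.

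In CTX against GE, 8 of the 49 genes were called at an adjusted p of 0.05 or less (edgeR quasi-likelihood test, Benjamini-Hochberg over all 17357 genes tested), where 4.51% of all genes were called. Of these, 6 were higher in CTX (3.65% of all genes) and 2 were lower (0.858% of all genes). The higher genes were the receptors Epha4, Epha6, Epha7 and Unc5d and the ligands Sema3a and Sema5a, and the lower genes were the secreted ligand Ntn1 and the receptor Epha10. At an unadjusted p under 0.05 there were 21 of 49 genes, against 18.4% of all genes. The median log2 fold was 0.25 for the 49 genes and 0.00 for all genes, but in peaks away from promoters it was -0.07 and 0.19. In all 8 called genes the CTX values lay outside the range of the 6 GE values, and 4.37% of all genes were called and separated in this way. Called or not, the CTX values of 13 of the 49 genes lay outside the GE range, against 19.3% of all genes.

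The count depended on the samples in the fit. It was 1 without CGE replicate 2, 2 without CGE replicate 1, LGE replicate 1 or LGE replicate 2, and 5 without MGE replicate 1, while removing CTX replicate 1 left 4. In the same order, 1.3%, 2.31%, 1.92%, 1.98%, 2.24% and 3.72% of all genes were called in these fits, so that the single call without CGE replicate 2 was near the share over all genes. Leaving out CTX replicate 2 instead gave 16 calls. That fit compares tissue of the same embryonic day, with the remaining CTX sample assumed to vary like the other groups, and 10.4% of all genes were called in it. In that fit 15 genes were higher in CTX, namely Efna1, Epha3, Epha4, Epha5, Epha7, Nrp1, Plxna4, Plxnd1, Robo2, Sema3f, Sema4d, Sema5a, Sema6d, Slit3 and Unc5d, and Ntn1 was lower. With an offset for covered length, none of the 49 genes was called in the 8-sample comparison, against 0.0615% of all genes, and the median log2 fold of all genes shifted to -0.15. DESeq2 called 20 of the 49, against 15% of all genes. The share of odd entries in the count matrices separated the replicate numbers in every group (9.54% to 10.4% in replicate 1 and 5.17% to 5.85% in replicate 2). With the replicate number as a block, 5 genes were called (3.45% of all genes), Ntn1, Sema5a, Epha4, Epha10 and Efna1. The adjusted p of the other called genes was then 0.0504 for Unc5d, 0.0511 for Epha7, 0.0601 for Epha6 and 0.075 for Sema3a (edgeR).

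Ntn1, which encodes Netrin-1 (GRCm38 chr11:68209364-68400823, minus strand), was the gene that stayed below the threshold of 0.05 in all 8 fits that left out a sample. The 2 CTX samples had 112 and 91.8 CPM, with 331 and 266 in MGE, 228 and 273 in LGE, and 203 and 225 in CGE. Both CTX samples were the lowest, and the MGE mean was the highest at 299 ± 46.3 (SD, n = 2). The log2 fold was -1.31 ± 0.16 (SE, adjusted p = 0.00974). Ntn1 peaks covered 19.6 and 17.0 kb in CTX and 20.5 to 41.7 kb in GE, and per covered kb the level was 5.73 and 5.40 CPM in CTX and 6.22 to 11.1 in GE. The groups did not overlap on either scale, but with the covered-length offset the log2 fold was -0.49 ± 0.21 (adjusted p = 0.393). Ntn1 was also the gene called lower in its promoter peaks (log2 fold -1.08 ± 0.17, adjusted p = 0.0353), the 1 call among the 49 genes there, where 1.02% of all genes were called. That promoter call held in 2 of 8 fits that left out a sample, and its adjusted p was 0.4995 with the offset and 0.051 with the replicate block. With the block 1 other of the 49 genes was called in promoter peaks, higher in CTX (1.17% of all genes). In peaks away from promoters the log2 fold of Ntn1 was -1.74 ± 0.17 (adjusted p = 0.0225). In those peaks 5 of 48 genes were called, Ntn1 and Epha10 lower and Unc5d, Sema5a and Epha7 higher in CTX, where 4.1% of all genes were called. None of the 48 was called there with the offset, where 3.32% of all genes were called. None was called with the replicate block either, where 0.00752% of all genes were called, and Ntn1 had an adjusted p of 0.0585 (edgeR). The calls did not hold when a CGE or LGE sample was left out, which left 1 sample in that group. Few of all genes were called in those fits either.

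Unc5d, a repulsive netrin receptor (chr8:28646717-29219636, minus strand), had the largest fold. Its level was 369 and 204 CPM in CTX, 54.7 and 105 in MGE, 85.9 and 83.6 in LGE, and 119.9 and 125 in CGE. The CTX samples were the highest, with the E12.5 sample well above the E14.5 sample. The log2 fold was 1.61 ± 0.27 (adjusted p = 0.0216), and it was called in 5 of 8 fits that left out a sample. Its peaks covered 53.0 and 24.3 kb in CTX and 8.79 to 34.0 kb in GE, and per covered kb the CTX level of 6.96 and 8.42 CPM overlapped the GE range of 3.68 to 8.04. With the offset the log2 fold was 0.47 ± 0.22 (adjusted p = 0.424).

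**Figure D1:**
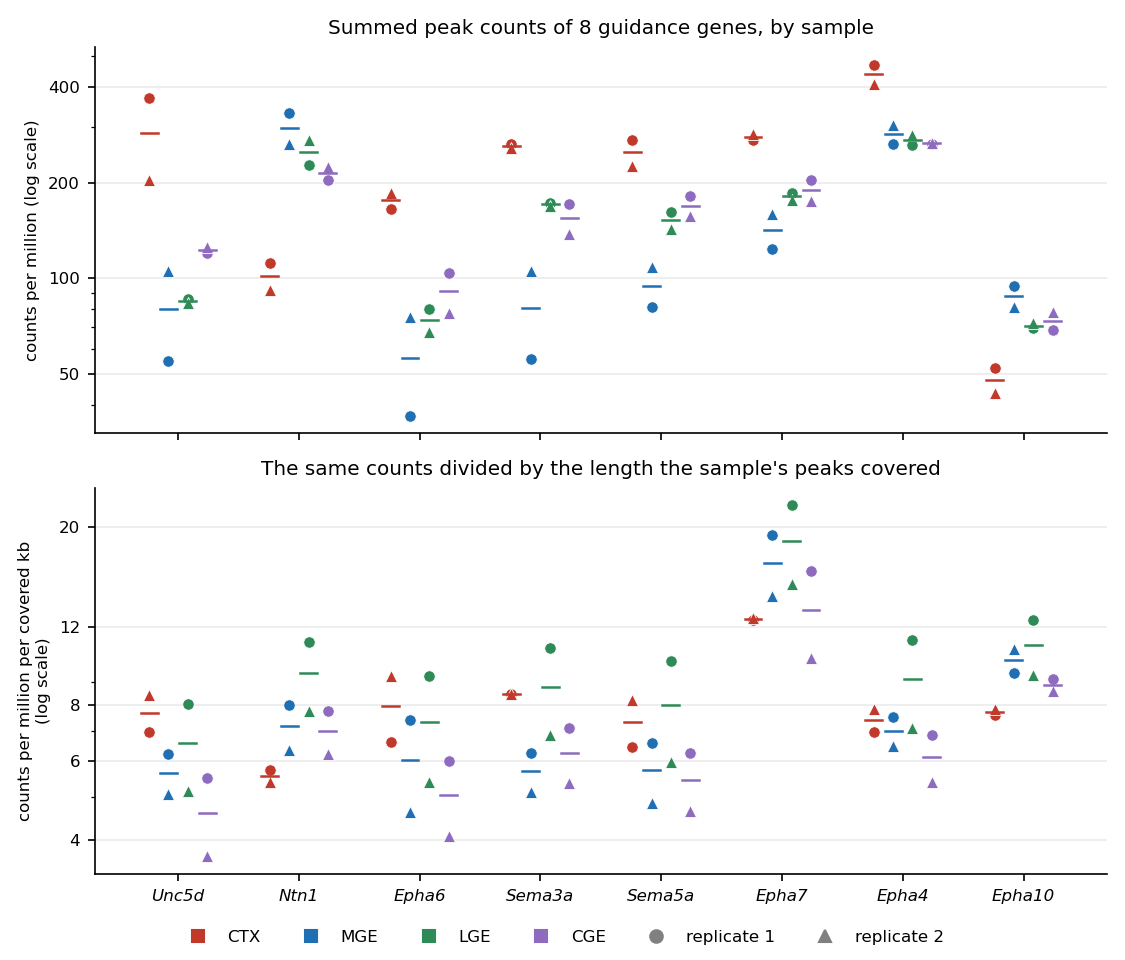
Peak counts of the 8 genes called in CTX against GE. The upper panel gives CPM and the lower panel the same counts divided by the length covered by the sample's peaks, both on log axes, with a point for each sample and a bar for each group mean. CTX lies outside the GE samples in the upper panel for all 8 genes and, in the lower panel, only for Ntn1 and Epha10.

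Among the Eph receptors, Epha6 had 165 and 186 CPM in CTX and from 36.9 (MGE replicate 1) to 104 (CGE replicate 1) in GE, with a median of 76.7. Its log2 fold was 1.29 ± 0.24 (adjusted p = 0.0327). Epha7 had 273 and 286 CPM in CTX and 124 to 204 in GE, with a median of 176. The log2 fold of Epha7 was 0.72 ± 0.13 (adjusted p = 0.0295), yet its covered length was 22.0 and 22.8 kb in CTX against 6.43 to 17.2 kb in GE, and with the offset the sign turned, to -0.35 ± 0.24 (adjusted p = 0.592). Epha4, which binds ephrins of the A and B classes, had 471 and 411 CPM in CTX and a narrow 262 to 303 in GE. Its log2 fold was 0.68 ± 0.12 (adjusted p = 0.0236) on counts and 0.02 ± 0.23 with the offset. In the opposite direction, Epha10 had 52.3 and 43.6 CPM in CTX and 68.8 to 94.4 in GE, a log2 fold of -0.68 ± 0.13 (adjusted p = 0.0346). Epha10 peaks covered 6.86 and 5.57 kb in CTX and 5.59 to 9.96 kb in GE, and per covered kb CTX stayed lower, at 7.62 and 7.84 CPM against 8.61 to 12.4. With the offset its log2 fold was -0.36 ± 0.17 (adjusted p = 0.435). Each of these 4 receptors was called in 2 of 8 fits that left out a sample. The 7 other Eph receptors were not called, with log2 folds from -0.52 (Epha8) to 0.66 (Epha5).

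None of the 6 ephrins, the membrane-anchored ligands of the Eph receptors, was called. Their log2 folds ran from -0.75 at Efna2 to 0.71 at Efna1, and Efnb2 had 332 and 335 CPM in CTX and 180.1 to 343 in GE.

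Of the semaphorins, 9 of 10 had a log2 fold above 0, with a median of 0.68 against 0.00 for all genes. In promoter peaks their median was 0.08 and none of the 10 had an unadjusted p under 0.05 by edgeR. The calls were Sema3a, a secreted repellent, and Sema5a, a transmembrane semaphorin with thrombospondin repeats. Sema3a had 264 and 258 CPM in CTX, 55.6 and 105 in MGE, 173 and 169 in LGE, and 171 and 138 in CGE, a log2 fold of 1.02 ± 0.22 (adjusted p = 0.0457). Sema5a had 273 and 225 CPM in CTX, 81.3 and 108 in MGE, 162 and 143 in LGE, and 182 and 157 in CGE, a log2 fold of 0.89 ± 0.15 (adjusted p = 0.0229). In both genes CTX was the highest and MGE the lowest, and LGE and CGE overlapped. Per covered kb, CTX lay inside the GE range in both, and the log2 folds with the offset were 0.32 ± 0.21 and 0.22 ± 0.23 (adjusted p = 0.575 and 0.733). Leaving out a sample kept the call in 2 of 8 fits for Sema3a and in 4 of 8 for Sema5a. Of the 8 other semaphorins, Sema3e had the largest fold, at 1.09, and Sema6a the lowest, at -0.03, and none was called.

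Plexins, neuropilins, Slits and Robo receptors gave no call on summed counts. The log2 folds of the 7 plexins ran from -0.23 (Plxnc1) to 1.09 (Plxna4), and those of Nrp1 and Nrp2, the neuropilins, were 0.25 and 0.20. Plxna4, a signalling receptor for class 3 and class 6 semaphorins, had 434 and 166 CPM in CTX and 98.4 to 189 in GE, so that only the E12.5 CTX sample lay above the eminences. The CTX samples of Robo2 were also far apart, at 469.9 CPM (E12.5) and 266 (E14.5), both above the GE range of 110.2 to 234. The other Robo log2 folds were 0.05 (Robo1) and 0.11 (Robo3), and those of the Slits were 0.20 (Slit1), 0.77 (Slit2) and 0.58 (Slit3). Of the remaining netrin system genes, the log2 fold was 0.41 at Ntng1, which encodes a membrane-anchored netrin, 0.39 at Dcc, and -0.18 to 0.09 at Unc5a, Unc5b and Unc5c.

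**Figure D2:**
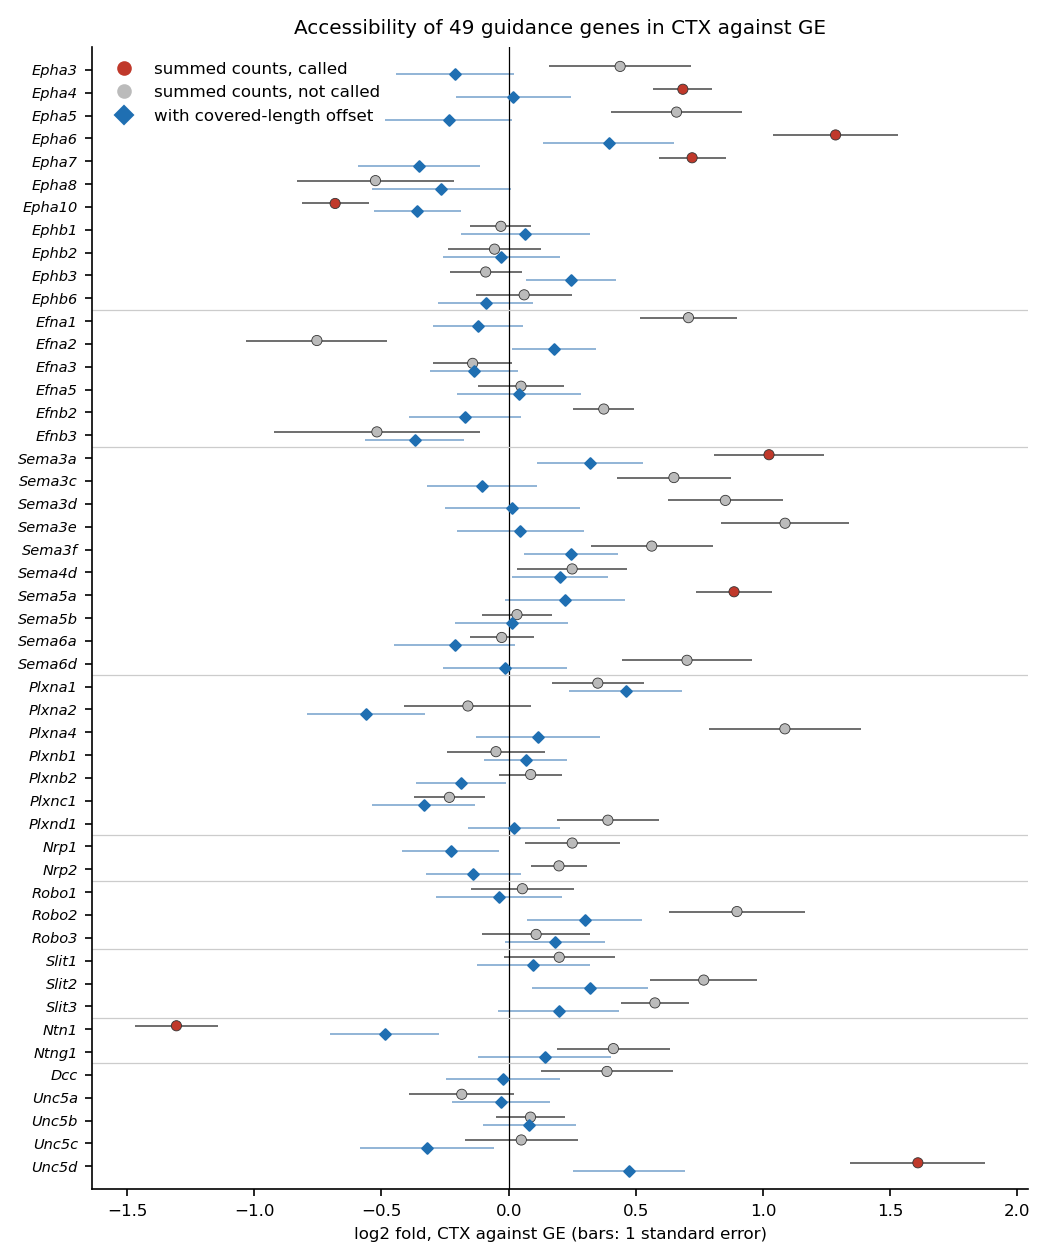
Log2 fold of CTX against GE for each of the 49 genes, ordered by family, with bars of 1 standard error. Circles are summed counts (red where called) and diamonds the fit with the covered-length offset, and 6 red circles lie above 0 and 2 below, while no gene was called with the offset.

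Between the eminences none of the 49 genes was called on summed counts by edgeR. Over all genes 0.117% were called in MGE against LGE, 0.111% for MGE and CGE, and 0.0117% for LGE and CGE. In that order, an unadjusted p under 0.05 was found for 13, 14 and 3 of the 49 genes, against 9.14%, 10.1% and 3.88% of all genes. DESeq2 called 8, 7 and 0 of the 49, against 3.49%, 3.39% and 0.712% of all genes. Without MGE replicate 2, edgeR called 1 gene in MGE against LGE (0.75% of all genes) and 6 in MGE against CGE (1.31%). With edgeR none was called in promoter peaks either, where 0.0642%, 0.0642% and 0.0321% of all genes were called, and at an unadjusted p under 0.05 there were 10, 7 and 3 genes (5.56%, 5.94% and 3.01% of all genes). In other peaks edgeR again called none of the 48 genes tested, against 0.264%, 0.152% and 0% of all genes, and 13, 12 and 1 had an unadjusted p under 0.05 (14.6%, 13% and 5.98% of all genes). Without MGE replicate 2, edgeR called 17 genes in other peaks in MGE against LGE (9.87% of all genes) and 19 in MGE against CGE (12.3%). DESeq2 called 2, 1 and 0 genes in promoter peaks (1.89%, 1.48% and 0.719% of all genes) and 8, 8 and 1 in other peaks (1506 of 12028 genes, 10.5% and 3.64%).

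The smallest p in MGE against LGE was that of Efnb2, a transmembrane ephrin, with 180.1 and 205 CPM in MGE and 325 and 343 in LGE (log2 fold -0.80 ± 0.14, unadjusted p = 0.000761 and adjusted p = 0.13 by edgeR). Efnb2 peaks covered 13.1 and 17.1 kb in MGE and 22.5 and 35.8 kb in LGE, and with the offset its log2 fold was 0.10 ± 0.27. Sema4d, a transmembrane semaphorin that binds Plexin-B1, had 134 and 109 CPM in MGE, 79.7 and 74.8 in LGE, and 80.0 and 73.7 in CGE. Its log2 fold was 0.65 ± 0.14 against LGE (adjusted p = 0.21) and 0.67 ± 0.14 against CGE (adjusted p = 0.215). With the covered-length offset the sign of Sema4d turned against LGE, to -0.14, and its log2 fold against CGE was 0.25. Plxna4 had 98.4 and 123 CPM in MGE, 146 and 131 in LGE, and 189 and 179.9 in CGE. The log2 fold of Plxna4 was -0.73 ± 0.15 in MGE against CGE (adjusted p = 0.205) and -0.41 ± 0.15 in LGE against CGE (unadjusted p = 0.0289 by edgeR). With the offset both signs turned, to 0.03 and 0.33. Robo3, a receptor known for commissural axons, had 47.4 and 52.8 CPM in MGE and 72.2 and 70.7 in LGE, with a log2 fold of -0.51 ± 0.13 in MGE against LGE (adjusted p = 0.276). In LGE against CGE the log2 folds of Efnb2 and Robo3 were 0.34 and 0.31, and neither was called. Sema5a had a log2 fold of -0.83 ± 0.18 in MGE against CGE (adjusted p = 0.216) and 0.07 ± 0.29 with the offset. MGE replicate 1 was the lowest of the 8 samples at Sema3a, Sema5a, Epha6, Epha7, Unc5d and Plxna4, and its peaks covered the shortest length at each of them.

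Peaks that overlapped between samples were merged into regions, and the 68274 of them in which every sample had a peak were tested. A region's count in a sample came only from that sample's own peaks within it. The length counted therefore still differed between samples, and region folds can carry differences in peak length. The windows of the 49 genes held 513 of these, from 1 (Ephb6) to 36 (Slit3) a gene. Of the 513, 364 were intronic, 85 exonic and 3 intergenic, and 61 lay at a promoter. CPM for regions is scaled in the same way to the counts of the tested regions.

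In CTX against GE, 112 of the 513 regions were called, where 14.9% of all regions were called. Of these, 63 were higher in CTX (9.49% of all regions) and 49 lower (5.39% of all regions), with log2 folds from 0.69 to 4.67 and from -4.76 to -0.54. CPM values of 93 of the 112 did not overlap between the groups, as held with a call for 13.3% of all regions. Higher regions lay in 28 of the genes and lower ones in 20, and 12 genes held both kinds. By place, 22.0% of intronic, 29.4% of exonic and 9.84% of promoter regions of the 49 genes were called, against 19.1%, 15% and 4.25% over all regions of those places. With an offset for the length covered within a region, 76 of the 513 regions were called (9.17% of all regions), and 65 of the 112 were called in both fits with the same sign (7.74% of all regions). The number called was 43 without CGE replicate 2, 56 without CGE replicate 1, 61 and 65 without LGE replicate 2 and 1, 68 without MGE replicate 1, then 179 without CTX replicate 1 and 184 without CTX replicate 2, the comparison at E12.5 alone. Over all regions the shares called in these fits moved in the same way, from 6.26%, 7.97%, 7.84%, 8.51% and 8.64% to 24.2% and 26.3% in the order given.

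By family, semaphorin genes held 16 higher and 3 lower regions of 94, Slits 13 and 7 of 73, plexins 10 and 7 of 62, Eph receptors 14 and 13 of 113, Robo receptors 5 and 7 of 46, ephrins 2 and 3 of 33, neuropilins 1 and 0 of 19, netrin receptors 2 and 3 of 55, and the netrins 0 and 6 of 18. The 6 netrin regions all belonged to Ntn1, which had 11 regions in all.

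**Figure D3:**
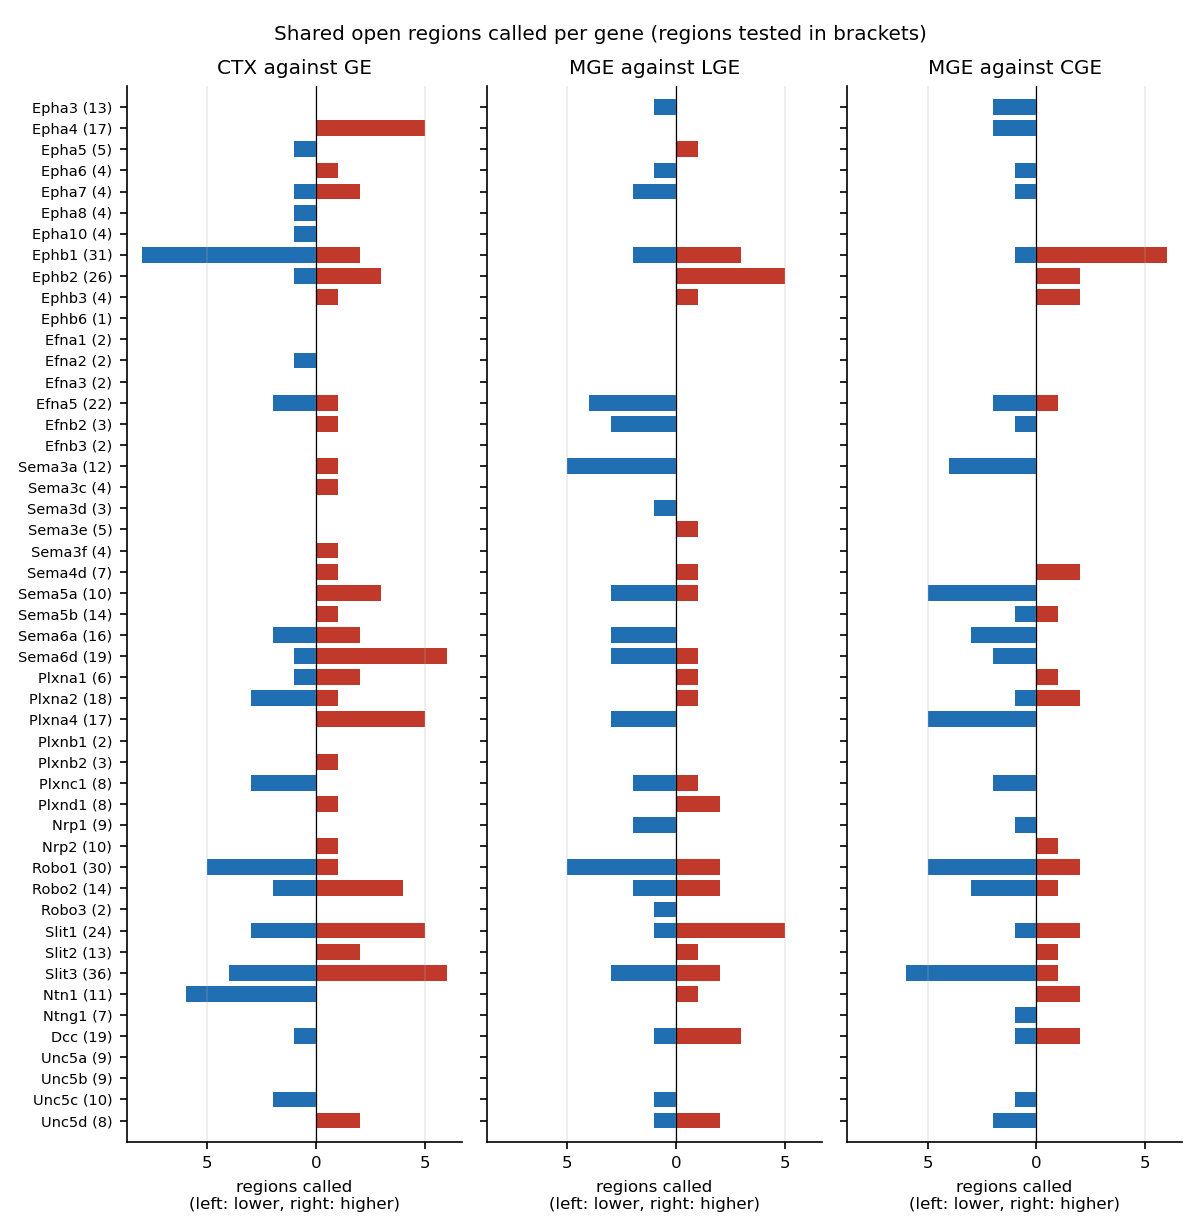
Number of regions called per gene in 3 comparisons, higher to the right and lower to the left, with the regions tested for each gene in brackets. In CTX against GE, Ephb1 has 8 lower and 2 higher regions, Ntn1 6 lower and 0 higher, and Epha4 and Plxna4 5 higher and 0 lower.

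Ntn1, Epha4, Plxna4 and Ephb1 were singled out after their region counts were seen. At Ntn1 the called regions lay along the whole gene, including the regions at its promoters 1.05 and 15.4 kb downstream of the gene start. With the offset 3 of the 6 were called, those 15.4, 126 and 184 kb downstream, and these 3 were called in all 8 fits that left out a sample. The promoter region at 1.05 kb was called in 3 of those fits and the region at 189 kb in 2. The largest change was in an intron 184 kb downstream, with 6.04 and 9.85 CPM in CTX, 70.7 and 61.3 in MGE, 28.9 and 33.6 in LGE, and 20.7 and 27.5 in CGE (log2 fold -2.21 ± 0.25, adjusted p = 0.00366 by edgeR). MGE was the highest there and CTX the lowest. The intronic region 126 kb downstream had 7.02 and 7.998 CPM in CTX and 21.9 to 34.7 in GE, with a log2 fold of -1.97 ± 0.18 (adjusted p = 0.00267). Of the 5 Ntn1 regions not called, 1 had a higher mean in CTX, and it rested on CTX replicate 1, with 11.2 CPM against 0.544 in CTX replicate 2.

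At Epha4 the promoter region at the gene start did not pass the test (115 and 129 CPM in CTX and 91.4 to 132 in GE), and the 5 called regions lay 13.7 to 137 kb downstream. With the offset 2 of these were called, those 105 and 137 kb downstream, and the log2 fold of the region at 13.7 kb went from 0.69 to 0.03. The regions at 107 and 112 kb were called in 1 and 2 of 8 fits that left out a sample. The promoter region of Plxna4 did not pass the test either, with 62.3 and 34.1 CPM in CTX and 42.8 to 48.6 in GE, and its 5 higher regions, all intronic, lay from 185 to 408 kb into the gene, 4 of them called with the offset and 2, at 191 and 336 kb, in all 8 fits that left out a sample. Ephb1, whose summed count differed by a log2 fold of only -0.03, held called regions of both signs, 8 lower with log2 folds from -2.47 to -0.96 and 2 higher, of 1.66 and 2.72. With the offset 4 of the 8 lower and both higher regions were called, and the log2 fold of the lower region at 90.1 kb went from -2.09 to -0.37. Only the region at 165 kb, with the fold of 2.72, was called in all 8 fits that left out a sample. Other genes with several calls were Robo1 (5 lower, 1 higher of 30), Sema6d (6 higher, 1 lower of 19), Slit3 (6 higher, 4 lower of 36), Slit1 (5 higher, 3 lower of 24) and Robo2 (4 higher, 2 lower of 14).

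**Figure D4:**
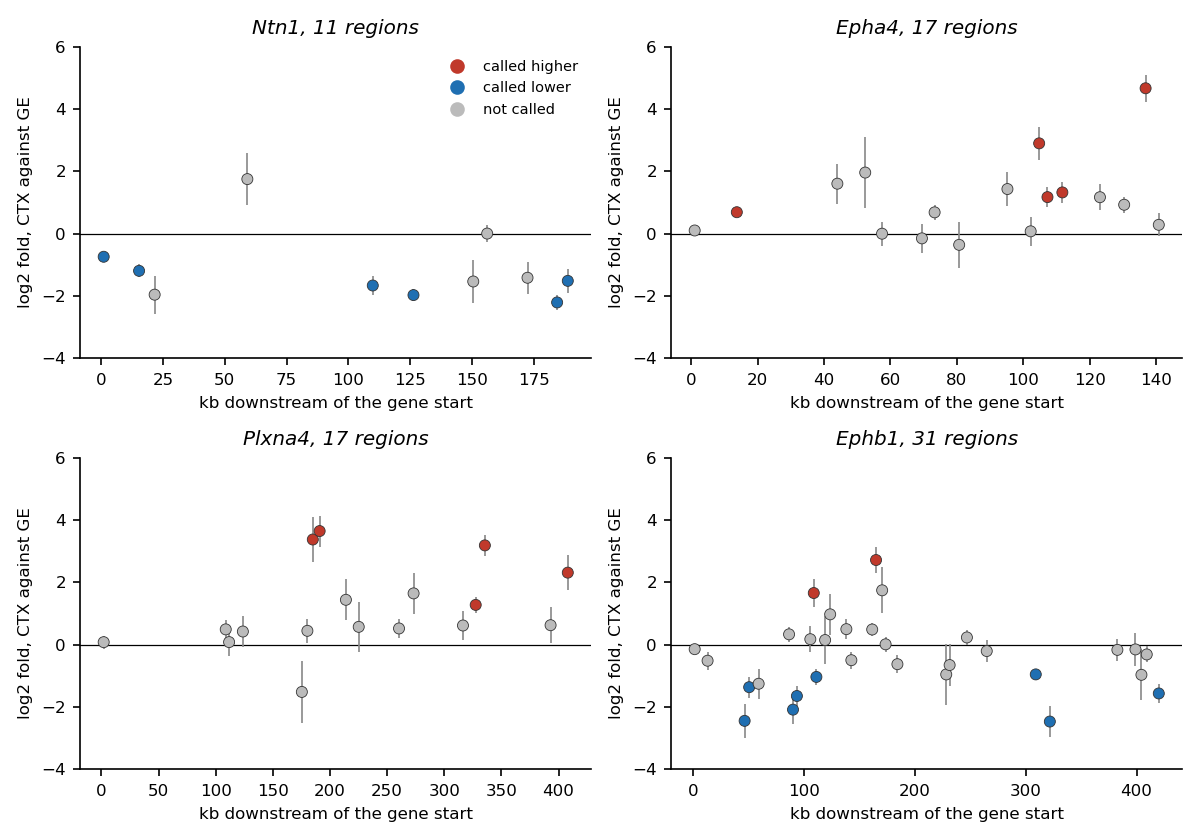
Log2 fold of CTX against GE for every tested region of 4 genes, against the distance in kb from the gene start, with bars of 1 standard error. Red and blue points were called higher and lower, and the regions nearest the starts of Epha4, Plxna4 and Ephb1 lie near 0, whereas 2 of the 6 lower Ntn1 regions lie at its promoters.

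The sequences below are the central 300 bases of 3 intronic regions, those of largest fold toward CTX (against GE) and toward and away from MGE (against LGE), taken from GRCm38, plus strand, 5′ to 3′. They are shown because most of the called regions lay in introns. Capitals mark matches on either strand to TAATTA, the core bound by many homeodomain factors, to the E-box sequences CAGATG and CAGCTG, and to AGGTCA, a nuclear receptor half-site. No matches overlapped.
Plxna4, chr6:32397105-32397404: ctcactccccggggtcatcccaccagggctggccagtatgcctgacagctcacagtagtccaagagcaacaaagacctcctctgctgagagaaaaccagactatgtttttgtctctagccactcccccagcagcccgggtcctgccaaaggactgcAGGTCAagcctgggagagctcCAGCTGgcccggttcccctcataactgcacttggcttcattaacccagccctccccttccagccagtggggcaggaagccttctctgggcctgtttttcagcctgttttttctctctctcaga
Slit3, chr11:35440533-35440832: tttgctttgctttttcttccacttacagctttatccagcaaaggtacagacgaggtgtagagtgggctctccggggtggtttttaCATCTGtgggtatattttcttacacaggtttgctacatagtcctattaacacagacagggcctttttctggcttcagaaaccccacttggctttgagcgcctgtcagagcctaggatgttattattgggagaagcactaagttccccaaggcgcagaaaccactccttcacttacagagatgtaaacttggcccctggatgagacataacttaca
Robo2, chr16:74070791-74071090: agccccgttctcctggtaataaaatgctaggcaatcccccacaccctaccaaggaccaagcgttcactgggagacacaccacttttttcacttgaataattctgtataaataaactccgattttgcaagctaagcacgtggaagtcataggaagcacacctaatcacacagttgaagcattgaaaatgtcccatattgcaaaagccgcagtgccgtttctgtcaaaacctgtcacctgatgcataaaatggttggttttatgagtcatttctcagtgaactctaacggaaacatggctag

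The Plxna4 stretch held 1 CAGCTG and 1 AGGTCA, the Slit3 stretch 1 CAGATG and the Robo2 stretch none of the 4 motifs. Of the central 300 bases of all 20086 tested intronic regions, 12.7% held TAATTA, 25.4% CAGATG, 22.0% CAGCTG and 15.5% AGGTCA.

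Higher in CTX by the largest fold was a region of Epha4 at an internal start site (chr1:77377113-77379310), 137 kb downstream of the gene start. It had 15.2 and 33.5 CPM in CTX and 0.513 to 1.69 in GE, a log2 fold of 4.67 ± 0.44 (adjusted p = 0.00267 by edgeR). A Sema6d region over an exon (chr2:124489239-124492391), 401 kb into this transmembrane semaphorin gene, had 42.5 and 36.7 CPM in CTX, 0.0387 and 0.765 in MGE, 5.20 and 2.50 in LGE, and 6.30 and 3.20 in CGE (log2 fold 4.37 ± 0.71, adjusted p = 0.00978). Both MGE values there lay below those of LGE and CGE, but the region was called in neither comparison of MGE. The MGE values rested on 5 and 53 counts. Peaks covered 3105 and 3091 bp of this Sema6d region in CTX but only 53 bp in MGE replicate 1. The printed Plxna4 stretch belonged to an intronic region (chr6:32396403-32398106) with 14.55 and 4.26 CPM in CTX and 0.18 to 1.31 in GE (log2 fold 3.65 ± 0.50, adjusted p = 0.00584).

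Among the regions lower in CTX, a Robo1 region over an exon (chr16:72958734-72960631) had 6.45 and 1.35 CPM in CTX and 31.7 to 54.8 in GE, a log2 fold of -3.28 ± 0.59 (adjusted p = 0.0134). A region over an exon of Plxna2, the gene of a class 3 and 6 semaphorin receptor (chr1:194797432-194799076), had 0.867 and 0.504 CPM in CTX and 1.85 to 7.95 in GE (log2 fold -2.78 ± 0.39, adjusted p = 0.00634). These 5 regions were called in all 8 fits that left out a sample and with the offset, under which the log2 folds were smaller, at 2.51 (Epha4), 1.83 (Sema6d), 1.35 (Plxna4), -2.38 (Robo1) and -1.32 (Plxna2).

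In MGE against LGE, 87 of the 513 regions were called, where 10.6% of all regions were called, 37 higher in MGE (4.86% of all regions) and 50 lower (5.79%). The number was 33 without LGE replicate 1, 54 without MGE replicate 1, 132 without MGE replicate 2, and 4 when CTX was added to the fit. In these fits 4.97%, 6.38%, 13.4% and 0.694% of all regions were called. With the offset 62 regions were called (6.48% of all regions). Both fits called 37 regions with the same sign (5.07% of all regions), and in 6 of the 87 the sign differed. DESeq2 called 147 (16.7% of all regions). Semaphorin genes held 4 higher and 15 lower regions, ephrins 0 and 7, Eph receptors 10 and 6, and Slits 8 and 4. Sema3a had 5 lower of 12 regions, Robo1 5 lower and 2 higher of 30, Efnb2 3 lower of 3 and Efna5 4 lower of 22, while Ephb2 had 5 higher of 26 and Slit1 5 higher and 1 lower of 24.

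The largest fold toward MGE was at the Slit3 intron region whose sequence is printed (chr11:35439876-35441490), in the gene of a secreted Robo ligand. It had 6.29 and 7.19 CPM in MGE, 0.458 and 0.714 in LGE, and 1.11 and 0.67 in CGE. The log2 fold was 3.52 ± 0.39 against LGE (adjusted p = 0.00304) and 1.10 with the offset (adjusted p = 0.0726). In CTX the samples were far apart at this region, with 15.7 CPM at E12.5 and 0.411 at E14.5. An intron region of Ephb2 (chr4:136680540-136683781) had 8.84 and 5.30 CPM in MGE and 0.368 and 1.19 in LGE (log2 fold 3.21 ± 0.66, adjusted p = 0.0221), and its fold was 0.10 with the offset, its peaks covering 2433 and 2567 bp in MGE and 110 and 558 bp in LGE. The call was lost without MGE replicate 1 (adjusted p = 0.104, edgeR). An intron region of Unc5d (chr8:28704129-28706076) had 10.3 and 17.8 CPM in MGE and 1.33 and 2.24 in LGE, a log2 fold of 2.97 ± 0.37 (adjusted p = 0.00394) and 1.33 with the offset.

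The largest fold away from MGE was at the Robo2 intron region whose sequence is printed (chr16:74070345-74071537), in the gene of a Slit receptor. It had 0.247 and 0.433 CPM in MGE, 5.30 and 5.24 in LGE, and 5.57 and 5.63 in CGE. LGE and CGE lay close together there, and CTX had 3.68 and 0.968. The log2 fold was -3.998 ± 0.34 against LGE (adjusted p = 0.00172) and -1.69 with the offset (adjusted p = 0.00174). An Epha6 intron region (chr16:59852634-59855647) had 0.711 and 2.90 CPM in MGE and 17.2 and 16.6 in LGE (log2 fold -3.29 ± 0.55, adjusted p = 0.0104, and -1.59 with the offset). A Sema5a region over an exon (chr15:32568145-32569947) had 3.46 and 3.83 CPM in MGE, 34.5 and 35.2 in LGE, 28.02 and 28.04 in CGE, and 21.3 and 79.6 in CTX. The Sema5a log2 fold was -3.27 ± 0.17 (adjusted p = 0.0011) and -2.66 with the offset.

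**Figure D5:**
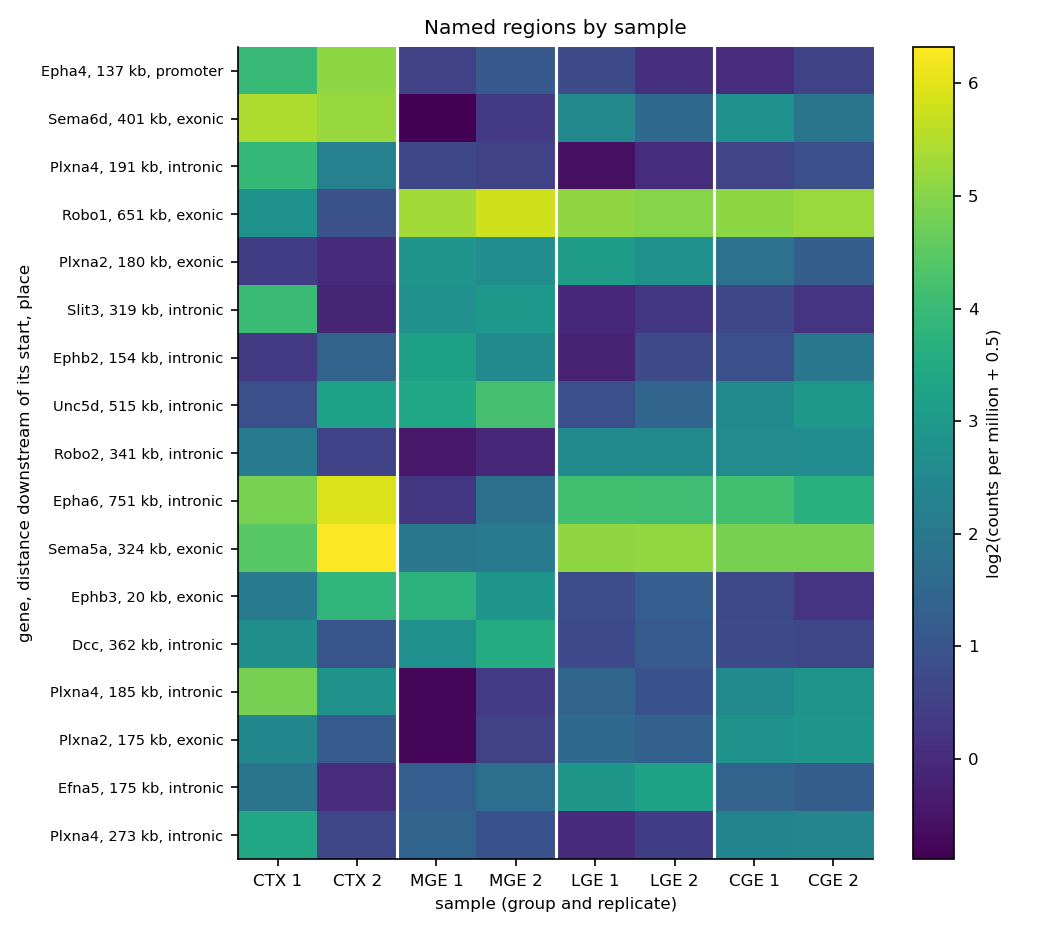
CPM of the 17 named regions in each sample, as log2(CPM + 0.5), a pseudocount used for drawing only, with each region given by its gene, its distance downstream of the gene start and its place. The Robo2, Epha6 and Sema5a regions are darker (lower) in both MGE samples than in LGE and CGE, and at the Slit3 region the CTX samples differ from each other.

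In MGE against CGE, 83 of the 513 regions were called, where 9.40% of all regions were called, 29 higher in MGE (3.56%) and 54 lower (5.84%). The number was 26 without CGE replicate 2, 33 without CGE replicate 1, and 0 when CTX was added to the fit, in which edgeR shared 1 estimate of the spread over all 8 samples. The shares of all regions called in these fits were 2.87%, 3.07% and 0.325%. With the offset 54 regions were called (5.09% of all regions), 43 of them in both fits with the same sign (4.14% of all regions), and DESeq2 called 131 (16% of all regions). This comparison shares its MGE samples with the one above. Semaphorin genes held 3 higher and 15 lower regions, Slits 4 and 7, Robo receptors 3 and 8, plexins 3 and 8, and Eph receptors 10 and 7. Ephb1 had 6 higher and 1 lower of 31, Slit3 1 higher and 6 lower of 36, Sema5a and Plxna4 5 lower of 10 and of 17, and Sema3a 4 lower of 12.

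The largest fold toward MGE was at a region that overlapped the 3′ end of Ephb3 (chr16:21222837-21226985). Most of this region lay beyond the gene end at 21223305. It had 12.9 and 6.77 CPM in MGE, 1.13 and 0.645 in CGE, and 3.85 and 13.9 in CTX. The log2 fold in MGE against CGE was 3.47 ± 0.45 (adjusted p = 0.00535 by edgeR). Peaks covered 4149 and 1578 bp of it in MGE and 523 and 454 bp in CGE. A Dcc intron region (chr18:71987711-71989678) had 6.17 and 11.2 CPM in MGE and 1.19 and 1.06 in CGE, a log2 fold of 2.94 ± 0.38 (adjusted p = 0.00525). At the same Slit3 region the log2 fold against CGE was 2.92 ± 0.38 (adjusted p = 0.00537). With the offset the log2 folds of the Ephb3, Dcc and Slit3 regions were 1.03, 1.02 and 1.75. Toward CGE, the same Robo2 region had a log2 fold of -4.08 ± 0.34 (adjusted p = 0.00255) and -1.15 with the offset (adjusted p = 0.0356). A Plxna4 intron region 185 kb into the gene (chr6:32402220-32404242) had 0.0773 and 0.809 CPM in MGE, 2.17 and 1.40 in LGE, 5.29 and 6.74 in CGE, and 28.2 and 6.39 in CTX. The MGE against CGE log2 fold of this Plxna4 region was -3.86 ± 0.86 (adjusted p = 0.0307), and MGE was the lowest of the 4 regions. A Plxna2 region over an exon (chr1:194791516-194794156) had 0.0773 and 0.939 CPM in MGE and 6.60 and 7.03 in CGE (log2 fold -3.84 ± 0.86, adjusted p = 0.0318). Both Plxna regions were called in 4 of 6 fits that left out a sample, and their log2 folds with the offset were -2.02 and -1.80.

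In LGE against CGE no region of the 49 genes was called by edgeR, where 0.00293% of all regions were called. At an unadjusted p under 0.05 there were 92 of 513 regions against 12.1% of all regions, DESeq2 called 31 (4.03% of all regions) and the offset fit 6 (1.21%). The smallest p were those of an Efna5 intron region (chr17:62705841-62707074), with 7.15 and 9.03 CPM in LGE and 2.15 and 1.86 in CGE (log2 fold 2.02 ± 0.29, adjusted p = 0.0887), and of a Plxna4 intron region (chr6:32314399-32315665), with 0.499 and 0.865 in LGE and 4.66 and 4.77 in CGE (log2 fold -2.79 ± 0.41, adjusted p = 0.0905). With the offset their log2 folds were 1.52 (adjusted p = 0.0174) and -0.73 (adjusted p = 0.285).

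Further genes of the guidance pathways were also tested on summed counts. Of 30 other ligands and receptors none was called by edgeR in any of the 4 comparisons, with 6, 5, 6 and 1 at an unadjusted p under 0.05 in the order given above, CTX first (18.4%, 9.14%, 10.1% and 3.88% of all genes), and the median log2 fold in CTX against GE was -0.02. Of 30 intracellular effectors 2 were called higher in CTX, as were 3.65% of all genes. These were Ablim1, an actin-binding protein, and Srgap1, a GTPase-activating protein that binds Robo receptors. None was called in the other comparisons, and 8, 5, 2 and 2 of the effectors had an unadjusted p under 0.05 in the 4 comparisons.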

How the data were processed

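Raw counts per peak and nuclear barcode were deposited for each of the 8 samples. Per the labels, the authors processed the reads with Cell Ranger ATAC 1.2.0 on GRCm38 (mm10), and peaks were called in each sample separately. Most of the deposited counts were even numbers, as if each fragment counted by its 2 ends, and intervals that treat them as independent were not used. Deposited counts per motif were not used. Counts were summed over all deposited nuclear barcodes of a sample. No doublet caller was run, and the sources used here do not give how doublets were treated before deposit. Gene models came from GENCODE release M21 (protein-coding only), and a peak overlapping several genes counted for each. Promoter peaks lay within 1000 bp of a protein-coding start site of the gene. Genes (all peaks, promoter peaks, other peaks) and 68274 merged regions were tested with edgeR 4.0.16 in R 4.3.3 (glmQLFit, TMM, filterByExpr), over 8 samples for CTX against the mean of GE and over the 6 GE samples otherwise. Features with a p of 0.05 or less after Benjamini-Hochberg adjustment were called. SE is the log2 fold divided by the root of F. The edgeR steps for summed counts in CTX against GE were tested on simulated counts, and the other fits were not. Alternatives were DESeq2 1.42.0, its size factors in edgeR, a covered-length offset, a replicate block, no filter on low counts, peaks of 1 gene only, all 8 samples, and leaving out each sample. The members, the gene lists and the 6-sample fit for the eminences were chosen with earlier results of these data known. Values in full were given for genes called on all peaks or, with none called, for the 3 with the smallest p, and for the 3 regions of largest fold up and down among those called without overlap of the groups, or the 2 with the smallest p. The 4 motifs were searched in stretches free of exons and not on chromosome 18. The account of 1 region named by this rule is not reported here. Coordinates are 1-based.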

Additional observations from a re-analysis of the deposited data

How the results depend on the processing

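On summed counts in CTX against GE, 8 genes were called, against 20 with DESeq2, 0 with the offset, 5 with the replicate block and 1 to 16 when a sample was left out. DESeq2 called 8 and 7 genes in MGE against LGE and MGE against CGE where edgeR called 0, and leaving out a sample gave 0 to 1 and 0 to 6, with 0 in LGE against CGE. In promoter peaks the 1 call in CTX against GE became 9 with DESeq2 (7.19% of all genes), 0 with the offset (0.155%) and 2 without a filter on low counts (1.1%). It did not hold in every fit that left out a sample. DESeq2 called 2 promoters in MGE against LGE and 1 in MGE against CGE, and leaving out a sample gave 0 to 1 in the former. In other peaks the 5 calls in CTX against GE became 17 with DESeq2 (18.6% of all genes), 0 with the offset, 0 with the replicate block and 0 to 13 (8.72% of all genes) when a sample was left out. There DESeq2 called 8, 8 and 1 genes in the 3 eminence comparisons, and leaving out a sample gave 0 to 17 in MGE against LGE and 0 to 19 in MGE against CGE, the highest counts without MGE replicate 2 (9.87% and 12.3% of all genes).

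For regions, leaving out a sample gave 43 to 184 calls in CTX against GE, 33 to 132 between MGE and LGE, 26 to 124 between MGE and CGE and 0 to 3 between LGE and CGE. DESeq2 called 147, 131 and 31 regions in the 3 eminence comparisons in that order. With all 8 samples in the fit 4 and 0 were called for MGE and LGE and for MGE and CGE, and with the offset 54 for MGE and CGE and 6 for LGE and CGE. Of the fits that left out a sample, that without MGE replicate 2 called most for MGE and CGE (13.5% of all regions). That without LGE replicate 2 called most for LGE and CGE (0.718% of all regions). Where a left-out sample left a group with 1 sample, the remaining sample was assumed to vary like the other groups. The cause of these differences was not tested.

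Same-numbered samples deviated together only weakly (r of their deviations from the group means 0.042 to 0.272 over genes, above 0.1 in 4 of 6 group pairs), and the labels name nothing the numbers share. Over regions r ran from -0.042 (CGE with MGE) to 0.308 (CGE with LGE). Not every pair being over 0.1, the numbers were not treated as pairs in the main fits. The replicate block gave 95, 83, 84 and 0 regions in the 4 comparisons, against 13.7%, 10.9%, 9.45% and 0% of all regions. Of 435 refits of single named values, 351 kept direction and side of the threshold, 68 lost the call, 10 gained it and 6 reversed, all with the offset. The reversed log2 folds were -0.35 for Epha7 in CTX against GE, 0.10 for Efnb2 and -0.14 for Sema4d in MGE against LGE, 0.035 for Plxna4 and 0.073 for Sema5a in MGE against CGE, and 0.33 for Plxna4 in LGE against CGE.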
